A study of Mus musculus with 8 samples.

Results

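BMEL cells (bipotential mouse embryonic liver cells) are a mouse cell line, and the control cells described here are those that received the pcDNA3 vector without an insert. Of the 8 RNA-seq samples of the series, 4 are such controls, chosen by their plasmid label and numbered as replicates 1 to 4. The remaining samples received a plasmid coding for GRHL2 and were not used. All cells were grown on collagen in RPMI 1640 with 10% fetal bovine serum, IGFII, EGF, insulin and antibiotics, and RNA was taken 48 h after transfection with JetPrime. The controls are therefore transfected, growth factor-fed cells of a single line, not untouched cells, and the study names its 4 samples independent biological replicates.

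Hepatoblasts are the precursors of the fetal liver from which both hepatocytes and cholangiocytes, the cells lining bile ducts, arise. They express Afp (alpha-fetoprotein) and Alb (albumin) together with liver transcription factors such as Hnf4a, while cholangiocytes carry the keratins Krt7 and Krt19 and factors such as Sox9. Simple epithelia in general build their intermediate filaments from Krt8 and Krt18 and join their cells through E-cadherin (Cdh1), whereas mesenchymal cells use vimentin (Vim) and N-cadherin (Cdh2).

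Each gene has a deposited value per sample, on a log2 scale and per transcript length, so that a difference of 1 is a 2-fold difference in transcript abundance. Levels below are means ± SD of the 4 controls, set against a median of 6.44 over all 18671 genes of the table, and a percentile is a gene's rank among those genes. A gene was placed at the lower limit where its value, with the length put back, stood for fewer than 10 normalized reads a library, or, where no length was found, where its value was below 0, which held for 5103 genes (27.3%). Read depth per sample is unknown, so no interval that needs it is given. With a single group, no comparison between groups was tested, and SDs measure the spread between these 4 samples. Values of genes with few reads were drawn by the rlog transformation towards the mean of all 8 libraries, the GRHL2 libraries included, so their SDs are understated and a level near the lower limit is approximate.

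The distribution of levels had 2 broad humps. Of the 18671 genes, 910 had a mean below 0, 5695 lay from 0 to 4, 5423 from 4 to 8, 6214 from 8 to 12, and 429 at 12 or above. When values were put back on the linear scale and divided by their sum in each sample, the 429 genes at 12 or above took 43.4% ± 0.54 (SD, n = 4) of the total, whereas genes from 0 to 4 took 0.259% and those below 0 took 0.00524%. The 100 most abundant genes took 24.3% ± 0.48 and the 1000 most abundant 57.6% ± 0.48.

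**Figure D1:**
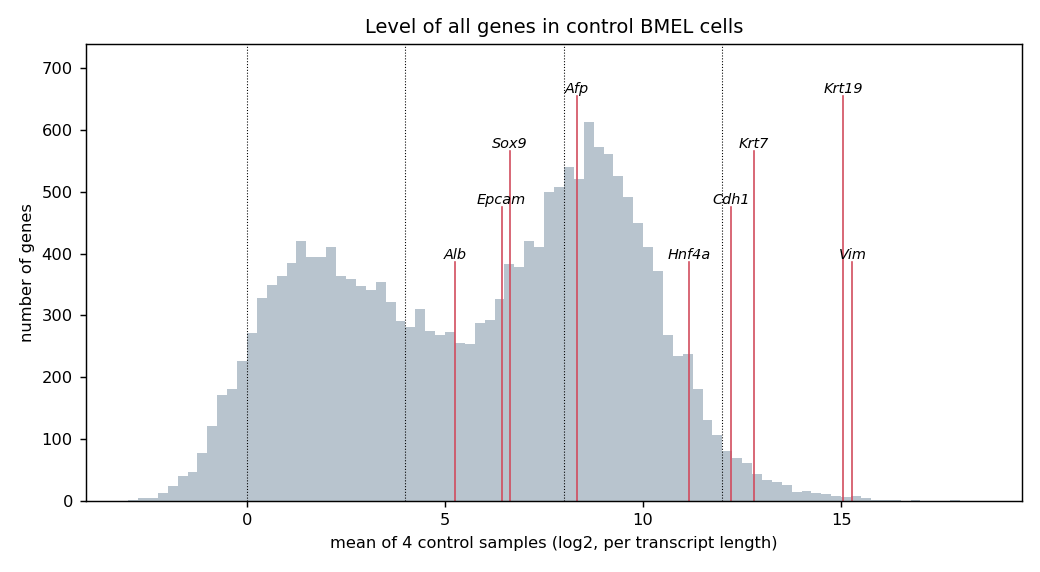
Number of genes (y axis, bins of 0.25) by the mean of the 4 control samples (x axis, log2 per transcript length). Dotted lines mark the class limits 0, 4, 8 and 12, and red lines the markers, from Alb at 5.25 to Krt19 at 15.05 and Vim at 15.28.

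The 6 markers of these cells were spread over almost 10 log2 units, with the biliary keratins at the top and albumin at the bottom. Krt19 (chr11:100140810-100148665, minus strand, GRCm38) measured 15.11, 14.86, 15.11 and 15.11 in replicates 1 to 4, with a mean of 15.05 ± 0.12 (n = 4), which made it the gene of rank 19 in the whole table. Krt7 (chr15:101411043-101430313, plus strand) measured 12.85, 12.60, 12.94 and 12.78, with a mean of 12.79 ± 0.14 and rank 214. Both keratins were lowest in replicate 2, and within each sample Krt19 stood above Krt7 by 2.25 ± 0.06, a ratio of 4.76. Afp (chr5:90490737-90508907, plus strand) measured 8.35, 8.28, 8.38 and 8.29, a mean of 8.32 ± 0.05 at percentile 68.2.

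Sox9 (chr11:112782224-112787760, plus strand), a factor of the biliary lineage, and Epcam (chr17:87635979-87651129, plus strand), an adhesion molecule of epithelial and biliary progenitor cells, lay near the median of all genes. Sox9 measured 6.44, 6.50, 6.74 and 6.88, a mean of 6.64 ± 0.21, and Epcam 6.39, 6.40, 6.42 and 6.51, a mean of 6.43 ± 0.05. These 2 neighbours were separated by 0.21 ± 0.16 within samples, near the SD of Sox9, and their ranges overlapped although Sox9 was the higher in 4 of 4 samples. Alb (chr5:90460897-90476602, plus strand) measured 5.13, 5.14, 5.25 and 5.49, a mean of 5.25 ± 0.17 at percentile 42.9, which stood for about 34.2 normalized reads a library. The range of each of the other pairs of neighbours in this order did not overlap. Within samples Afp exceeded Alb by 3.07 ± 0.18, a ratio of 8.41, and Krt19 exceeded Alb by 9.79 ± 0.16, a ratio of 888.

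Upstream sequences are shown for Afp and Alb, the pair of hepatoblast genes at unequal levels, for Rbp4, the highest of the plasma protein genes, and for Epcam, an epithelial gene at the median. Each is the RefSeq stretch of 250 bases just before the RefSeq start on GRCm38.p6, read 5′ to 3′ on the gene's own strand, and none overlaps an exon of GENCODE M21. Capitals mark the letters TATAAA, the core of a TATA box, searched on both strands. The Afp stretch is chr5:90490464-90490713 (plus strand), the Alb stretch chr5:90460620-90460869 (plus strand), the Epcam stretch chr17:87635729-87635978 (plus strand), and the Rbp4 stretch, 1 of 2 annotated starts, chr19:38125322-38125571 (minus strand).
Afp: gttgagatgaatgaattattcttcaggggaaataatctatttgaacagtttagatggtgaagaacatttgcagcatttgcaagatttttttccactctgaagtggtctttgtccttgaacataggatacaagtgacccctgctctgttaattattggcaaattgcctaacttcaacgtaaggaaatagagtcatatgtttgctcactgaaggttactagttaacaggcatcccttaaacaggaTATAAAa
Alb: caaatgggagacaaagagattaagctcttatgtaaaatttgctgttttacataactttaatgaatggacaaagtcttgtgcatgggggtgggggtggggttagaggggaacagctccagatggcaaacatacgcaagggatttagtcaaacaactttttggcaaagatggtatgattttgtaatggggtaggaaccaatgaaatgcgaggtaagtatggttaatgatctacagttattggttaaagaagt
Epcam: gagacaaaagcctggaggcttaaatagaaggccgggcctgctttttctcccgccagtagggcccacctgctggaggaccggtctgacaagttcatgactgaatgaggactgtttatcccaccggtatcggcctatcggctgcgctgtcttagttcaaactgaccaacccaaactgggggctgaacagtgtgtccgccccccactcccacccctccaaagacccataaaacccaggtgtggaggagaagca
Rbp4: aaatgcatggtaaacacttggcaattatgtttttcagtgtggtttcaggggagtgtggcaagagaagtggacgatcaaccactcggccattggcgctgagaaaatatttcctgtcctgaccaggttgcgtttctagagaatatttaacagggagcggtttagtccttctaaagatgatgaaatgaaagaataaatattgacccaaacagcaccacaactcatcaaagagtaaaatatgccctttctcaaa
TATAAA begins at position -7 in Afp, counted back from the RefSeq start, which lies upstream of the GENCODE start at 90490737 given above. It occurs in 12.4% of the 32851 promoters of the RefSeq table, and between 40 and 20 bases before the start in 2.31%. TATAAA does not occur in the Alb, Epcam and Rbp4 stretches. The RefSeq starts of Alb and Rbp4 also lie upstream of the GENCODE starts, at 90460897 and, on the minus strand, 38125281. The bases between the 2 starts were not searched, so a TATA box there would be missed. G and C make up 36% of the Afp stretch, 39.2% of that of Alb, 40.8% of that of Rbp4 and 56.4% of that of Epcam. These are descriptions of the windows and say nothing on what is bound there.

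**Figure D2:**
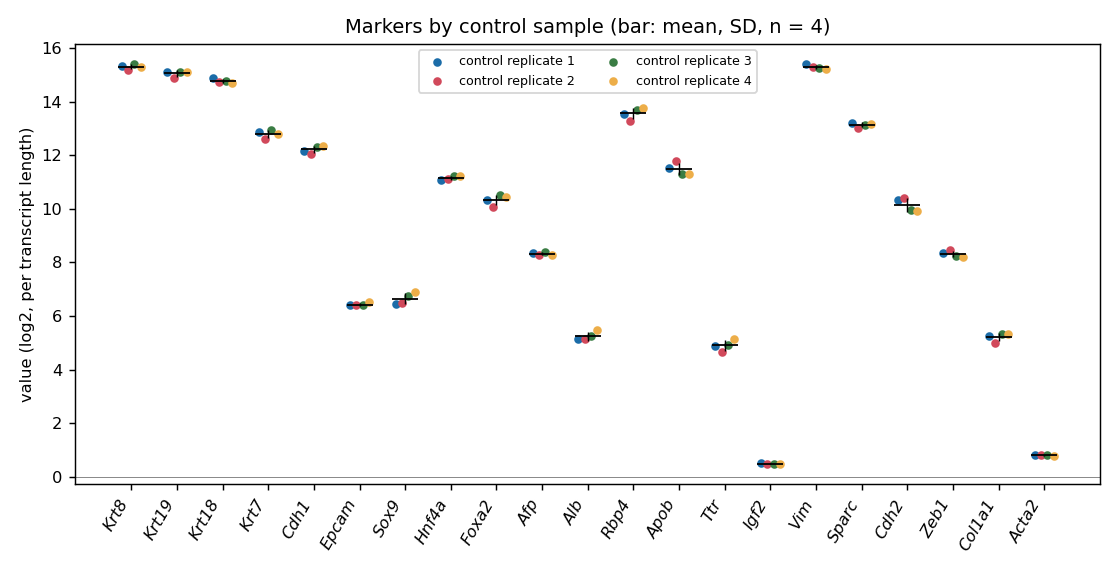
Value of 21 marker genes (x axis) in each control sample (y axis, log2 per transcript length), with the mean and SD of 4 as a black bar. The keratins and Vim lie above 12 in every sample, Alb and Ttr near 5, and Igf2 and Acta2 below 1.

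Among 26 genes of the biliary keratins and surface proteins, 23 were in the table, with a median of 6.58 at percentile 51.1, so the list as a whole sat at the middle of all genes while 7 of its members lay at 12 or above. The keratins of simple epithelia led it. Krt8 measured 15.34, 15.19, 15.40 and 15.30 (mean 15.31 ± 0.09, rank 12 in the table) and its partner Krt18 measured 14.87, 14.74, 14.78 and 14.68 (mean 14.77 ± 0.08). Cd24a, a surface glycoprotein of progenitor cells, reached 13.36 ± 0.12, the tetraspanin Tspan8 13.04 ± 0.13 and Lamb3, a chain of the basement membrane protein laminin-332, 12.11 ± 0.06. Spp1 (osteopontin), which bile duct cells secrete, averaged 10.88 but varied, at 10.77, 10.21, 11.18 and 11.37. At the other end, Lcn2, Cldn7 and Vtcn1 were at the lower limit, and Mmp7, Cldn3 and Cldn10 were not among the genes of the table. Keratins, including Krt20 at 12.2, together took 0.994% ± 0.051 of the total, and 5 of the 31 keratin genes lay at 12 or above while 12 were at the lower limit.

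The transcription factors and targets of the biliary lineage were nearly all present, at moderate levels. All 15 were in the table, 12 of them above the median of all genes, with a list median of 7.60 at percentile 60.3. Id2, an inhibitor of basic helix-loop-helix factors, stood highest at 11.81 ± 0.24, followed by the Notch target Hes1 at 10.27 ± 0.24, Id3 at 9.29 ± 0.18 and the YAP partner Tead4 at 8.86 ± 0.08. Endogenous mouse Grhl2, an epithelial factor, averaged 4.53 ± 0.12, at 4.68, 4.57, 4.42 and 4.44 after the drawing towards all 8 libraries, and Onecut1 was at the lower limit. Onecut1 thus differed from its paralog Onecut2, which averaged 6.68 ± 0.25.

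Secretory and ciliary genes of cholangiocytes ranged from high levels to the lower limit, where 27.3% of all genes lay. The chloride channel Ano1 averaged 10.97 ± 0.11, the anion exchanger Slc4a2 10.77 ± 0.06, the bicarbonate cotransporter Slc4a4 8.77 ± 0.06 and the RNA-binding Bicc1 8.44 ± 0.11. The polycystins Pkd2 (8.27 ± 0.04) and Pkd1 (8.09 ± 0.11) followed. Cftr, the chloride channel of mature ducts, the secretin receptor Sctr, Dcdc2a, Gpbar1 and Ggt1 were at the lower limit, 5 of the 14 members in the table, and Slc10a2, the bile acid transporter, was not among its genes. The list median was 7.13 at percentile 56.1.

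Hepatocyte transcription factors had a list median of 7.08, against 2.91 for plasma proteins and 2.61 for metabolic genes of hepatocytes. Of 20 factors, 19 were in the table, with the median at percentile 55.3. Hnf4a (chr2:163506808-163572910, plus strand), the nuclear receptor that governs hepatocyte identity, measured 11.07, 11.11, 11.22 and 11.22, a mean of 11.16 ± 0.08 at percentile 95.0. The pioneer factor Foxa2 averaged 10.33 ± 0.19, Gata6 9.95 ± 0.05 and Rxra, the shared partner of many nuclear receptors, 8.72 ± 0.05. All 4 stood above the median of all genes in every control.

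Paralogs among these factors were unequal. Foxa2 stood above Foxa1 by 4.03 ± 0.24 and above Foxa3 by 5.81 ± 0.07, the latter a ratio of 56.3. Gata6 exceeded Gata4 by 2.01 ± 0.08 and Cebpb exceeded Cebpa by 1.68 ± 0.21. Each of these differences had the same sign in 4 of 4 samples. Nr1h4, the bile acid receptor FXR, averaged 7.08 ± 0.06. Ppara, the fatty acid sensor, and Nr1i2, the xenobiotic receptor PXR, were at the lower limit, and Nr1i3 was not among the genes of the table.

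Of 32 plasma protein genes of hepatocytes, 22 were in the table, with a median of 2.91 at percentile 27.7, and 12 of these 22 were at the lower limit. Rbp4, the carrier of retinol, stood apart from the list, at 13.52, 13.29, 13.69 and 13.75, a mean of 13.56 ± 0.21 and rank 105 in the table. Apob, the protein of very low density lipoproteins, measured 11.52, 11.77, 11.30 and 11.29, and Hpx (hemopexin) averaged 8.17 ± 0.14. Within samples Rbp4 exceeded Alb by 8.31 ± 0.13, a ratio of 317, and Apob exceeded Alb by 6.22 ± 0.36, a ratio of 74.4. Apoe averaged 6.83 ± 0.13, Ambp 6.78 ± 0.18, C3 4.97 ± 0.18 and Ttr (transthyretin) 4.91 ± 0.20. The coagulation genes Fgb, F2 and F10 and the iron carrier Trf were at the lower limit, and Fga, Fgg, F9, Vtn, Apoa4, Apoc1 and Apoc3 were among the 10 that were not in the table. Absence from the table is not read as silence here.

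The metabolic genes of hepatocytes were as low, with 20 of 32 in the table, a median of 2.61 at percentile 25.4, and 10 at the lower limit. Glul, which makes glutamine and marks pericentral hepatocytes but is used by many proliferating cells too, averaged 11.24 ± 0.22. Cyp3a13, a drug-metabolizing cytochrome P450, averaged 8.68 ± 0.09 and the urea cycle enzyme Ass1 7.55 ± 0.04. Cps1, the entry enzyme of that cycle in hepatocytes, lay at -0.65 ± 0.03. The bile salt pump Abcb11, the bile acid importer Slc10a1, and Cyp2e1, Cyp1a2, Cyp8b1, Tat and Pck1 were also at the lower limit. Among 41 cytochrome P450 genes of the table with a subfamily letter in their symbol, 22 were at the lower limit and 5 reached 8, Cyp2s1 and Cyp20a1 being the highest.

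The hepatoblast list gave a mixed picture. Of its 16 genes, 13 were in the table, with a median of 4.56 at percentile 38.9 and 4 members above the median of all genes. Met, the hepatocyte growth factor receptor, averaged 10.13 ± 0.04, the imprinted gene Peg3 9.78 ± 0.05, the homeobox factor Hhex 8.65 ± 0.20 and Afp 8.32 ± 0.05. Other members were lower. Igf2, the fetal growth factor supplied in this medium, measured 0.51, 0.48, 0.47 and 0.48, about 2.8 normalized reads a library, Mest averaged 3.28 ± 0.01 and Lin28b 5.07 ± 0.08. Dlk1, Gpc3 and the imprinted RNA H19 were not among the genes of the table, and no level is given for them. Of the 13 genes, 2 were at the lower limit, Igf2 among them, and the lowest member lay at 0.058. Hnf4a, Foxa2 and Gata6, all above the median of all genes, belong to the list of hepatocyte factors and not to this one. Alb lay below that median.

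**Figure D3:**
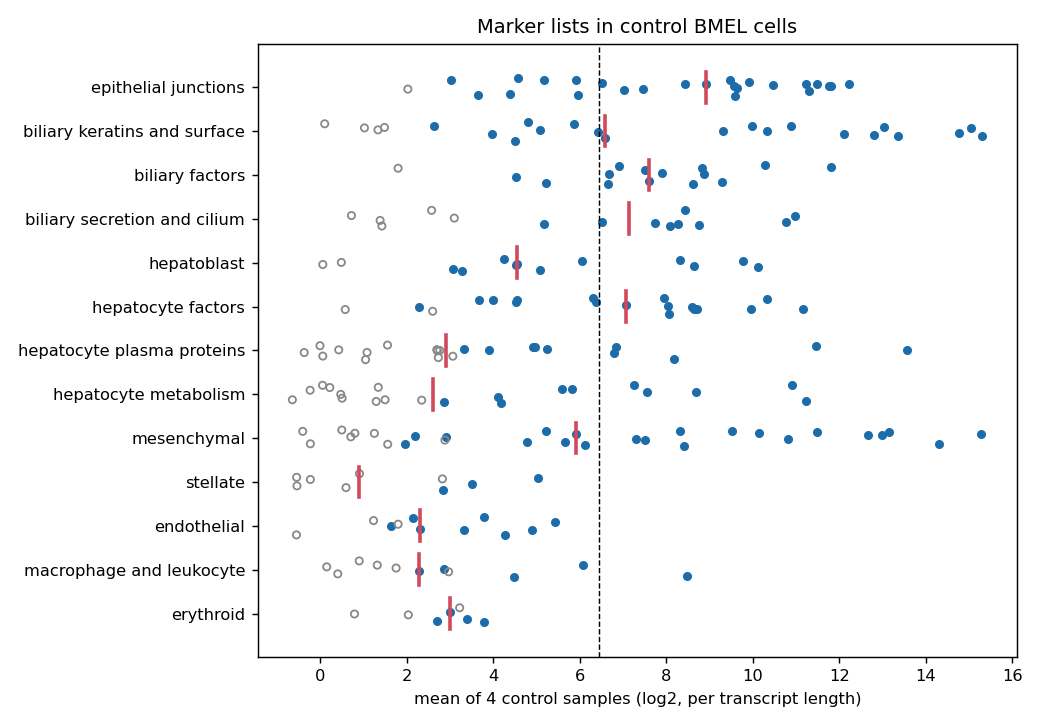
Mean level of each gene (points) in 13 marker lists (y axis), on a log2 scale per transcript length (x axis). Open grey points are genes at the lower limit, red bars the list medians and the dashed line the median of all genes at 6.44. The list median of epithelial junctions is 8.91, those of plasma proteins and metabolic genes are under 3, and that of stellate genes is under 1.

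Genes of epithelial junctions were high as a list. Of 26, 25 were in the table, 17 above the median of all genes, with a list median of 8.91 at percentile 75.4. Cdh1 measured 12.15, 12.05, 12.31 and 12.34, a mean of 12.21 ± 0.14. The tight junction scaffold Tjp1 averaged 11.80 ± 0.13, plakoglobin (Jup) 11.77 ± 0.14 and the junctional adhesion molecule F11r 11.48 ± 0.04. Cdh1 exceeded Epcam by 5.78 ± 0.11, a ratio of 55.1. Of the epithelial splicing regulators, Esrp2 averaged 9.91 ± 0.07 and Esrp1 3.03 ± 0.02, a ratio of 118. Esrp1 stood for about 23.2 normalized reads a library. Its value was drawn towards all 8 libraries, so this ratio is approximate and its SD understated. Within the same list occludin (Ocln) averaged 5.96 ± 0.12, Rab25 5.18 ± 0.06, Ovol1 4.38 ± 0.04 and Ovol2 3.65 ± 0.00, Marveld3 was at the lower limit, and Dsc2 was not in the table. The table held 13 claudins, 7 of them at the lower limit, with a median of 2.74 over all 13, and the highest were Cldn2 at 10.46 ± 0.46 and Cldn6 at 10.33 ± 0.16.

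Mesenchymal genes covered the full range of levels in the same samples. Of 36, 29 were in the table, 13 above the median of all genes, with a list median of 5.92 at percentile 46.6. Vim (chr2:13573927-13582826, plus strand) measured 15.39, 15.29, 15.23 and 15.23, a mean of 15.28 ± 0.08. Per length, Vim was above Krt8 in 2 of 4 samples and the difference was -0.02 ± 0.12, whereas with transcript length put back the log2 of reads was 15.86 for Vim and 16.28 for Krt8. The galectin Lgals1 averaged 14.29 ± 0.17, the matrix protein Sparc 13.14 ± 0.08, tropomyosin Tpm1 13.0 ± 0.06 and the receptor tyrosine kinase Axl 12.66 ± 0.03. Cdh2 measured 10.32, 10.42, 9.95 and 9.91 and lay under Cdh1 in every sample, by 2.06 ± 0.39.

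The repressors of the epithelial state that accompany mesenchymal genes were at moderate or low levels. Zeb1 averaged 8.31 ± 0.11 and Zeb2 7.52 ± 0.28. Snai2 averaged 5.65 ± 0.16, and Zeb1 exceeded it by a ratio of 6.31, while Snai1, Twist1 and Twist2 were at the lower limit. Genes of fibroblasts and contractile cells were unequal. Tagln (transgelin), of smooth muscle, averaged 6.12 ± 0.06, near the median of all genes. The smooth muscle actin Acta2 averaged 0.80 ± 0.03, Pdgfrb -0.23 ± 0.01 and Cnn1 0.71 ± 0.03, all at the lower limit, and the collagen genes Col1a2 and Col3a1, Dcn, Lum and Postn were not in the table. By contrast, the basement membrane collagens Col4a1 and Col4a2 averaged 12.7 and 11.8.

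Taking 12 lists of other lineages together, 100 of 163 genes were in the table, 50 of these at the lower limit, with a median of 2.30, and 7 lay above the median of all genes. In the lists of liver cells of other kinds, stellate genes had a median of 0.905 (highest Colec11 at 5.03), endothelial genes 2.31 (highest Eng at 5.42), leukocyte genes 2.29 and erythroid genes 3.0 (highest Epor at 3.79). The defining markers Ptprc of leukocytes and Cdh5 of endothelium were at the lower limit, and Adgre1 and Clec4f of Kupffer cells and Lrat of stellate cells were not in the table. The 3 globin genes Hbb-bs, Hbb-bt and Hbb-y were not in the table either.

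Lists of lineages outside the liver were as low, with medians of 1.37 for 14 neural genes, 1.42 for 7 muscle genes, 3.53 for 2 pancreatic genes, 3.67 for 10 genes of intestine and stomach, 1.71 for 5 of lung and thyroid, 1.44 for 11 of kidney and genital tract, 3.56 for 11 of squamous epithelium and 1.25 for 3 of pluripotency and germ line. Pdx1, Ptf1a, Ins1, Ins2, Pou5f1, Nanog, Myod1 and Trp63 were not in the table.

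The 7 genes of other lineages above the median of all genes came from 6 lists, Vil1 and Cdx2 both from that of intestine and stomach. Tnnt2, cardiac troponin T, was the highest, at 11.48, 11.25, 11.52 and 11.52, while Myh6, Myh7 and Mb were at the lower limit. Vil1 (villin, of the brush border) measured 9.04, 9.09, 9.51 and 9.60, with replicates 3 and 4 above the others, and the hindgut factor Cdx2 7.52, 7.41, 7.70 and 7.76. The other values were 9.16 ± 0.06 for the microtubule protein Map2, 8.47 ± 0.08 for Cd14, a lipopolysaccharide co-receptor that hepatocytes can express too, 8.18 ± 0.21 for the basal keratin Krt14 and 6.68 ± 0.11 for the renal and genital factor Pax2.

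Hox genes, which mark position along the body axis, were unequal between clusters. Of the 11 Hoxa genes, all were in the table and 10 were above the lower limit, and of the 10 Hoxb genes 9 were in the table and 7 above it. Of the Hoxc genes 6 of 9 were in the table and 1 was above the lower limit, and of the Hoxd genes 5 of 9 were in the table and 2 were above it. The highest were Hoxa10 at 8.28, 8.22, 8.32 and 8.22 and Hoxb7 at 8.15, 8.08, 8.21 and 8.18, which differed by 0.10 ± 0.05, followed by Hoxb6 at 7.66 ± 0.08 and Hoxa7 at 7.23 ± 0.15. In the Hoxb cluster the genes Hoxb3 to Hoxb9 were all above the limit, and Hoxb2 and Hoxb13 on either side were at it.

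**Figure D4:**
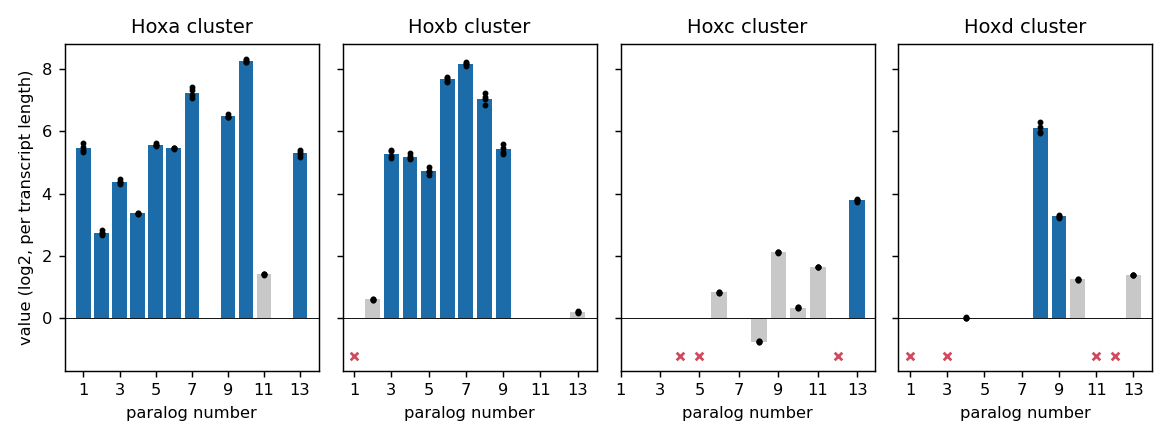
Mean level (bars) and the 4 control values (dots) of Hox genes by cluster and paralog number (y axis, log2 per transcript length). Grey bars are genes at the lower limit and red crosses genes not in the table. The Hoxa and Hoxb clusters hold 17 of the 20 genes above the limit, and the tallest bar is Hoxa10 at 8.26.

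The 25 most abundant genes included translation factors, ribosomal proteins, chaperones and cytoskeletal genes. Eef1a1, a translation elongation factor, was first at 17.86 ± 0.14 and took 2.07% ± 0.18 of the total. Gm23935, an annotated miRNA gene of 57 bases (0.057 kb, chr16:11144125-11144181, plus strand), was second at 16.77 ± 0.66, a place that rests on division by its length. The chaperones Hsp90ab1 (16.25 ± 0.05) and Hspa8 (15.73 ± 0.06), the ribosomal Rplp0 (16.19 ± 0.14), Rps2, Rpsa and Rpl4, and the elongation factors Eef2 (15.87 ± 0.02) and Eef1g followed. The glycolytic Pkm (15.57 ± 0.11) and Eno1, the ferritin chains Ftl1 and Fth1, Actb, Actg1, Anxa2, the secreted chaperone Clu at 15.25 ± 0.09, Tpt1, Ptma, Npm1 and the ATP synthase subunit Atp5b completed the first 25 with Krt8, Krt19 and Vim. These 25 genes took 11.9% ± 0.15 of the total. Ribosomal protein genes of the cytosol, 85 by their symbols, took 9.37% ± 0.62, or 5.18% with transcript length put back. The annexins Anxa1, Anxa3 and Anxa4 and the S100 proteins S100a6 and S100a11 lay between 13.5 and 14.9.

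All 16 reference genes lay above the median of all genes, from Gusb at 7.71 ± 0.13 and Tbp at 7.79 ± 0.02 to Eef1a1, and Gapdh averaged 12.54 ± 0.13. Between these came, among others, B2m (11.43 ± 0.12), Tfrc (11.89 ± 0.07), Hprt (12.01 ± 0.06), Sdha (12.27 ± 0.07), Ywhaz (13.99 ± 0.08), Pgk1 (14.15 ± 0.08), Ppia (14.45 ± 0.12), Tubb5 (14.50 ± 0.13), Actb (15.70 ± 0.06) and Rplp0. Their SDs thus ran from 0.02 to 0.14.

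Genes of the cell cycle had a list median of 11.14 at percentile 94.9, the highest of the lists apart from the reference genes, and 32 of the 33 in the table were above the median of all genes. The cyclins Ccnd1 (12.83 ± 0.07) and Ccnd2 (12.22 ± 0.08), the topoisomerase Top2a (12.83 ± 0.05), the replication clamp Pcna (12.64 ± 0.06) and Mki67 (10.43 ± 0.18) were all high. The inhibitor Cdkn1a was the highest member, at 12.90 ± 0.05, and exceeded Cdkn1b by 3.98 ± 0.09. Cdkn1c was at the lower limit, and the inhibitors Cdkn2a and Cdkn2b were not in the table.

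Receptors and relays for the growth factors of the medium were present, with all 13 in the table and 10 above the median of all genes. The adaptor Shc1 averaged 11.07 ± 0.10, Grb2 9.67 ± 0.10 and the clearance receptor Igf2r 9.54 ± 0.08. Egfr measured 9.40, 9.64, 9.25 and 9.12, above Erbb2 by 0.78 ± 0.28, while Erbb3 averaged 4.55 ± 0.11 and Erbb4 was at the lower limit. Igf1r (8.09 ± 0.14) and the insulin receptor Insr (7.92 ± 0.06) differed by 0.18 ± 0.15, a difference near its own SD. Of the EGFR ligands, Areg (amphiregulin) led at 11.57 ± 0.18, then Hbegf at 9.76 ± 0.13, Tgfa at 9.44 ± 0.05 and Btc at 8.39 ± 0.13. Egf, which the medium supplies, averaged 4.32 ± 0.10, and Areg exceeded it by 7.25 ± 0.18, a ratio of 152.

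Among signalling lists, that of the Hippo pathway was high, with 14 of its 15 genes in the table above the median of all genes and a list median of 9.66. Its targets Amotl2 (11.92 ± 0.14), Ankrd1 (11.72 ± 0.43), Ccn2 (10.64 ± 0.09) and Ccn1 (10.55 ± 0.52) were its highest members, and the coactivators Yap1 and Wwtr1 averaged 10.19 ± 0.06 and 9.45 ± 0.08. In the TGF-beta list (median 8.55) the highest were the signal carriers Smad3 at 11.06 ± 0.06, Smad4 at 10.65 ± 0.05 and Smad2 at 9.52 ± 0.05 and the receptor Tgfbr1 at 9.42 ± 0.11. Notch genes had a median of 5.91, led by Hes1, the ligand Jag1 at 10.02 ± 0.07, the receptor Notch1 at 9.71 ± 0.18 and the ligand Jag2 at 9.40 ± 0.14. Notch1 stood above Notch2 by 2.10 ± 0.17, and Heyl and Dll3 were at the lower limit. The Wnt list had a median of 6.49, led by Ctnnb1 (beta-catenin) at 14.25 ± 0.10, the coreceptor Lrp5 at 9.74 ± 0.07, the ligand Wnt7a at 9.56 ± 0.17 and Axin1 at 9.22 ± 0.09, while the pathway's feedback targets Axin2 (4.65 ± 0.08) and Lgr5 (3.07 ± 0.07) were low and Nkd1 and Notum were at the lower limit.

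Genes of stress responses had a median of 9.67, led by the endoplasmic reticulum chaperone Hspa5 (13.84 ± 0.10), Atf4 (12.08 ± 0.05), asparagine synthetase Asns (11.75 ± 0.08) and Hmox1 (10.58 ± 0.16), with the heat shock genes Hspa1a and Hspa1b at 4.02 ± 0.03 and 6.04 ± 0.15. All 21 interferon-stimulated genes were in the table and none was at the lower limit, with a median of 6.02 at percentile 47.3. Stat2 (8.13 ± 0.22), the RNA sensor Ddx58 (8.01 ± 0.18), Bst2 (7.83 ± 0.19) and Ifit3 (7.80 ± 0.27) were the highest. No sample of untransfected cells was used here, so the levels of these genes before transfection are not given.

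Gene lists that the study took from outside sources, as its supplementary table gives them, were read in the controls as well. Of the 57 cholangiocyte-enriched genes, 44 were in the table, with a median of 4.58, and 15 were at the lower limit. After Krt19 and Krt7, the highest reported here was tissue factor F3 at 11.3. Of the 417 hepatocyte-enriched genes, 284 were in the table, with a median of 6.21, and 70 were at the lower limit. Rbp4, the serine synthesis enzyme Phgdh (13.2), Pebp1 and Gpx4 were its highest. The epithelial signature held 835 genes in that table, of which 655 were in the table with a median of 4.44 and 194 were at the lower limit. In it Krt8, Krt19, Anxa3 (13.9) and mesothelin Msln (13.2) stood highest. All of these medians lay below the 6.44 of all genes. The counts at the lower limit stand beside a share of 27.3% over all genes.

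The 4 controls were close to each other. The SD of a gene over the controls had a median of 0.060 over all genes, and 97.0% of genes had an SD under 0.2. Genes from 4 to 8 had a median SD of 0.082, those from 8 to 12 0.085 and those at 12 or above 0.095, while genes below 0, whose spread the rlog transformation understates, had one of 0.013. Between samples the root mean square difference over all genes was 0.072 for replicates 3 and 4, from 0.109 to 0.122 for replicate 1 against the others, and 0.164 and 0.170 for replicate 2 against replicates 3 and 4. Spearman correlations across genes ran from 0.9986 to 0.9998.

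Replicate 2 was the farthest from the others. Ribosomal protein genes took 9.66%, 8.45%, 9.76% and 9.61% of the total in replicates 1 to 4. Malat1, a nuclear non-coding RNA, measured 10.96, 11.76, 10.38 and 10.43, and Lars2, the mitochondrial leucyl-tRNA synthetase, 10.90, 12.18, 11.07 and 10.90. The short annotated RNAs Gm23935 and Gm24270 were also highest in replicate 2, at 17.75 and 14.35, against 16.33 to 16.61 and 12.74 to 13.22 in the others. The part of these differences in the levels of marker lists was not tested. Leaving out replicate 2 moved no list median by as much as its SD between samples. Dropping 1 of 4 values can hardly move a mean by its SD, so this does not measure what replicate 2 contributed.

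Gm28438 measured 8.56, 9.39, 8.17 and 8.26, with replicate 2 the highest as well. The remaining genes of the 10 with the largest SD showed 2 further patterns. In replicate 1 alone, Coro1a, an actin-binding protein of leukocytes, was at 5.64 against 3.91 to 3.97, and Ucp2, a mitochondrial carrier, at 4.86 against 3.71 to 3.77. Coro1a and Ucp2 stood for only about 17.6 and 18.4 normalized reads a library. Thy1, at the lower limit on average, was likewise 3.36 in replicate 1 against 2.72 to 2.73. Outside these 10 genes, Rnaset2a (6.89) and Arhgdib (4.97) were also highest in replicate 1, by 0.96 and 0.47 over the next sample. Ptprc was at the lower limit with an SD of 0.06, which the rlog transformation understates. The source of these differences was not tested. The second pattern set replicates 1 and 2 apart from 3 and 4. Dusp1, a phosphatase induced early after stimulation, measured 8.91, 9.09, 8.10 and 8.02, with replicates 1 and 2 above the others by 0.81. Igfbp5, which binds insulin-like growth factors, ran the other way, at 5.22, 4.84, 5.87 and 6.06. Malat1 and Prl2c3, a growth-induced prolactin family gene that shares sequence with its close relatives (8.86, 9.50, 8.37 and 8.17), could be placed in this pattern or with the genes of replicate 2, since replicate 2 was the highest and replicate 1 lay above replicates 3 and 4.

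Further genes outside the rule showed the second pattern and were chosen after their values were seen. Ccn1 measured 10.94, 11.07, 10.12 and 10.10, Ankrd1 12.05, 12.14, 11.38 and 11.32, and Egr1, an immediate early gene, 6.06, 6.02, 5.37 and 5.34. In the opposite direction Cldn2 measured 10.19, 9.97, 10.85 and 10.86, the glutathione transferase Gsta4 10.65, 10.31, 11.20 and 11.28, and Bnip3, a mitophagy gene, 9.86, 9.84, 10.47 and 10.48. Among all genes, 7 were higher in both of replicates 1 and 2 than in both of the others by at least 0.5, and 12 were lower by as much. The labels give no batch that would separate these samples.

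**Figure D5:**
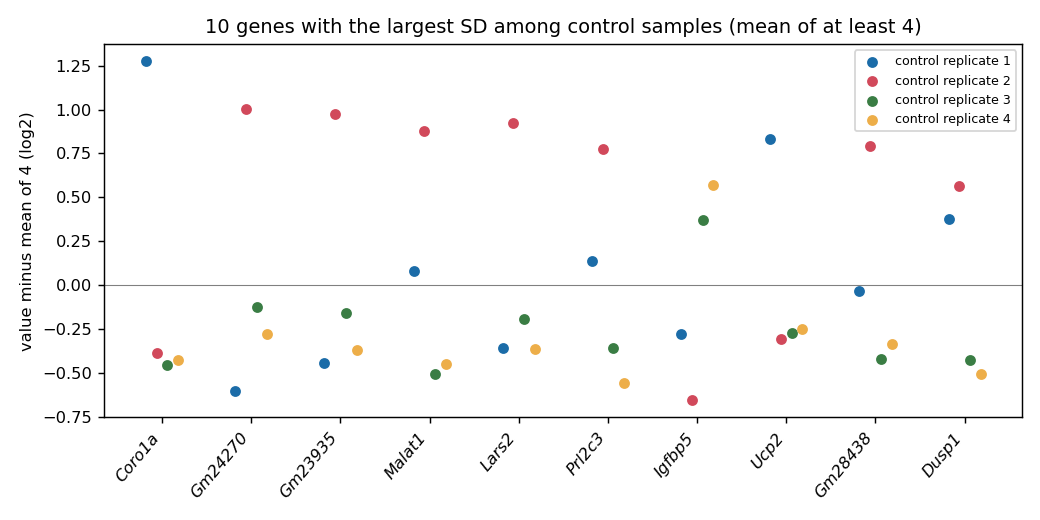
Value of each control sample less the mean of 4 (y axis, log2) for the 10 genes with the largest SD among genes with a mean of at least 4 (x axis). Coro1a and Ucp2 stand out in replicate 1, Gm24270, Gm23935, Malat1 and Lars2 in replicate 2.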

How the data were processed

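RNA-seq libraries (paired-end, total RNA) were made from 8 transfected BMEL samples, of which the 4 controls were analysed. The submitters' processing notes name HISAT2 2.2.1, HTSeq 0.9.1 and DESeq2 1.40.2 with mm10. According to the methods, exon reads were counted unstranded, a gene needed at least 10 reads summed over the libraries, and rlog values were related to GRCm39 transcript lengths averaged per symbol, which can be short for genes with many partial transcripts. That account opens with public data, and it was taken to hold for BMEL cells too. The deposited values, named for FPKM, were read as log2 (rlog less log2 length), since 4.85% of the control values are below 0.

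Means and SDs (n = 4), percentiles, shares of the linear sum and list medians were computed in Python 3.11.15 with pandas 2.3.3, and the functions were tested on simulated data. Lengths for the lower limit and positions came from GENCODE M21 on GRCm38 (18428 of 18671 genes). Promoters (RefSeq, GRCm38.p6) matched 12883 genes (69.0%), too few to compare promoter composition between classes, which was left out. Cyr61 and Ctgf on the Hippo list are older symbols of Ccn1 and Ccn2.

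The members, 33 lists and rules were chosen with earlier results of these data known. Genes named were the 6 markers, the 25 most abundant, the 4 highest of each list, low or missing lineage genes, the 10 with the largest SD (mean of at least 4) and the reference genes. Others were added after their values were seen, and a few are not reported here. Alternatives were other length handling, medians, an equal upper quartile, other limits and each replicate left out.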

Additional observations from a re-analysis of the deposited data

Results flagged for a closer look

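In 202 sets of 4 control values, those of 166 named genes and 36 list medians, a single sample stood apart from the others (gap over range above Dixon's 95% limit) in 21. Since 10 of the genes were chosen for their spread over the same values, this count is not set against chance. Replicate 2 was the sample in 13 of them, replicate 1 in 4 and replicates 3 and 4 in 2 each. Over all genes the share was 6.95%, where chance flags about 1 in 20, and replicate 2 was the sample in 657 of 1297.

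Replicate 2 was the lowest for Krt19 at 14.86 (others 15.11), Eef1a1 at 17.66 (others 17.92 to 17.95), Rplp0 at 15.99 (16.24 to 16.28), Eef1g at 15.22 (15.40 to 15.43), Tubb5 at 14.30 (14.55 to 14.59), Cd24a at 13.19 (13.40 to 13.44), Id2 at 11.45 (11.90 to 11.96), Sdha at 12.17 (12.29 to 12.31), Tnnt2 at 11.25 (11.48 to 11.52) and Ass1 at 7.49 (7.56). It was the highest for Lars2 at 12.18 (10.90 to 11.07), Atf4 at 12.15 (12.05 to 12.07) and Met at 10.19 (10.11).

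Replicate 1 was the highest for Coro1a at 5.64 (3.91 to 3.97), Ucp2 at 4.86 (3.71 to 3.77) and Gfap at 2.89 (2.82 to 2.83), and the lowest for Sox17 at 3.72 (3.79 to 3.80). Replicate 3 was the highest for Hba-a1 at 3.29 (3.19 to 3.20) and Scgb1a1 at 2.13 (2.05 to 2.06). Replicate 4 was the highest for Ddx4 at 1.32 (1.23 to 1.24), which is also the median of the 3 pluripotency and germ line genes. The last 3 genes were at the lower limit. The cause of these gaps was not tested.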

How the results depend on the processing

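Leaving out any 1 of the 4 controls or taking their median moved no class count by 1.5 times. Nor did it move any list median named in the report by more than its SD between samples. Neither step can readily move a mean of 4 by its SD, so no stability is read from the list medians. An equal upper quartile cannot move a mean of 4, by its construction. Length handling mattered more. With length added back, so that values stand for reads, the median percentile was 64.8 for biliary keratins and surface proteins, 64.9 for biliary factors, 47.3 for hepatoblast genes, 56.5 for hepatocyte factors, 26.0 for plasma proteins, 28.1 for metabolic genes, 78.6 for epithelial junctions. It was 46.8 for mesenchymal genes, against 46.6 per length. Among genes with a mean of at least 0 alone, where fewer genes are ranked, it was 48.6 for biliary keratins and surface proteins, 58.2 for biliary factors, 35.7 for hepatoblast genes, 53.0 for hepatocyte factors, 26.2 for plasma proteins, 28.3 for metabolic genes, 74.1 for epithelial junctions, 45.2 for mesenchymal genes. With length added back, 7 genes lay below 0 and 768 at 12 or above, and the 25 most abundant genes took 7.68% of the total, or 10.97% per length without genes under 0.3 kb. Of these 25 genes, 20 stayed among the first 25 with length added back and 23 or 24 in single samples. Genes at the lower limit numbered 3619 below 5 and 6327 below 20 normalized reads. Depth limits low genes, and its size is unknown. No paired analysis was possible because a single group was described.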

Other observations

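Ranked by normalized reads, that is with transcript length put back, the 25 highest genes gained Scd2, a fatty acid desaturase (log2 of reads 15.50), Krt18 (15.29), the chaperone Hsp90aa1 (15.10), the ribosome-bound Rack1 (14.98) and the poly(A)-binding Pabpc1 (14.97). Krt8 was then at 16.28, behind Eef1a1 and Eef2, and Krt19 stood at 15.02. Gm23935, second per length, was no longer among them.

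Some genes of high level belong to none of the hand-made lists. Mesothelin (Msln, 13.2), a surface protein of mesothelial cells and some epithelia, Anxa3 (13.9) and the syndecan Sdc1 (12.5) stood high among the genes of the epithelial signature the study used, as did the uroplakin Upk1b (11.1). Of the hepatocyte-enriched genes, fatty acid synthase Fasn (11.8), the aldehyde dehydrogenase Aldh2 (10.2) and Proc (9.4), the protein C of the coagulation system, were expressed. These genes were chosen after their values were seen.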
